A study of Mus musculus with 12 samples.

Results

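The loci described here are unannotated stretches of transcription whose best match in the KEGG protein database carries the entry K11969, the entry of ARIH2. They were taken from the deposited gene table as features of the type New_gene, that is, loci assembled without an Ensembl gene, with K11969 as the first field of the KEGG annotation and at least 1 read in the 12 libraries. Of 10995 new loci, 6959 carried the entry, 225 of these had 0 reads, and the remaining 6734 made up 25.6% of the 26299 features with reads. RNA was sequenced from MODE-K cells, a wild-type mouse line labelled as small intestine epithelium, in 4 groups of 3 libraries. The control was not irradiated (0 Gy) and was taken at 0 h. The other groups were exposed to gamma rays from a cobalt source and taken 48 h after 4 Gy (4Gy_48h), 24 h after 12 Gy (12Gy_24h) or 48 h after 12 Gy (12Gy_48h). All groups are 1 cell line, and controls were taken at 0 h only, so the dose cannot be told apart from the time in culture in those comparisons. The labels do not say that the 3 libraries of a group came from separate cultures, and p-values reflect only how these libraries scatter, which may be technical.

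ARIH2 is a RING-between-RING ubiquitin ligase. It is activated by binding to a cullin-RING ligase whose cullin carries NEDD8, most often cullin 5, and then passes the first ubiquitin to the substrate of that complex. A KEGG entry given to an assembled transcript records only the best protein match of its translated sequence. Mouse transcripts often hold copies of short interspersed elements, among them B2, which RNA polymerase III can transcribe from an internal promoter and which also lie inside polymerase II transcripts and their introns.

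The entry was first set against the other annotations of the same loci. All 6734 loci matched the same 1 subject protein, annotated as an isoform of ARIH2 from Chinese hamster, with E values from 1.4e-16 to 9.8e-06 and a median of 1.1e-10. The mouse gene Arih2 itself (chromosome 9, 108602942 to 108649386, minus strand, GRCm38) had an E value of 4.1e-295. No locus had a Pfam domain and none had a KEGG pathway (0 of 6734 for both). A Swiss-Prot match was listed for 2035 loci, and in 2033 of them it was to NEDD4, another ubiquitin ligase. In the NR protein database the loci matched 68 different sequences, of which only 23 loci had a match named ARIH2. The most frequent NR matches were the predicted rat protein rCG56442 (1840 loci) and the predicted mouse proteins mCG1045525 (1832 loci) and mCG145372 (597 loci), with a sequence named Chpt1 protein in 950 loci. The data therefore go against reading these loci as copies of Arih2, and they are called K11969 loci below.

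No sequence of the K11969 loci was used here. The same entry was also carried by 33 of 355 unannotated and 7 of 239 known long noncoding RNA (lncRNA) loci, and the 7 known ones have reference transcripts. In 6 of the 7, the GENCODE transcripts held the 16-base run AACCACATGGTGGCTC on one strand or the other, against 6 of 170 other known lncRNA loci of the table (3.53%). It was found in 2.38% of 13374 lncRNA genes and 4.25% of 21951 coding genes of the whole annotation. The 12 mouse Arih2 transcripts did not hold it (0 of 12). The run was chosen after looking at these transcripts, as 1 of several equally shared by the most of the 7 loci. Among those, a run held by the fewest of the 170 other known lncRNA loci was taken. The high share in the 7 loci and the low share in the others thus both follow in part from the choice. The counts are a description with no test. As background, it belongs to the consensus of the B2 element. The windows below, 5′ to 3′, with the shared run in capitals, are shown because they come from transcripts annotated with the same KEGG entry. They come from GENCODE transcripts on GRCm38: Gm10941 (chromosome 10, 77257776 to 77259223), Snhg15 (chromosome 11, 6525591 to 6528760), 1110046J04Rik (chromosome 13, 33935567 to 33960181) and Gm43057 (chromosome 5, 86767141 to 86783033). That of Gm43057 is the reverse complement of its transcript.
Gm10941: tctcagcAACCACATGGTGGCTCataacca
Snhg15: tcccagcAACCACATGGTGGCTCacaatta
1110046J04Rik: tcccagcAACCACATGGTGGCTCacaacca
Gm43057: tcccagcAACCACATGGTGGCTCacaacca
The window in the transcripts of Gm12976 and 2700038G22Rik has the letters of the last of these lines. The seventh locus, A330069E16Rik, did not hold the run.

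The 12 libraries held 3616416 to 4831641 assigned reads each, so 1 read was worth about the same in all of them apart from the deeper control replicate 1. Epithelial markers were nearly absent: the 10 listed genes summed to 1.85 to 6.21 CPM (reads of a feature per 1e+06 assigned reads) in the controls, 7.90 to 8.002 in 4Gy_48h, 12.9 to 17.5 in 12Gy_24h and 9.37 to 9.68 in 12Gy_48h, with Cldn7 and Ocln at 0 reads. The 8 mesenchymal markers summed to 804 to 1227 CPM in the controls, 1409 to 1902 in 4Gy_48h, 2517 to 2982 in 12Gy_24h and 1667 to 2244 in 12Gy_48h, with Lum at 0 reads. The 6 immune markers summed to 22.1 to 28.3 CPM in the controls, 15.4 to 22.1 in 4Gy_48h, 20.7 to 34.9 in 12Gy_24h and 40.8 to 47.5 in 12Gy_48h, with Cd3e and Ptprc at 0 reads. The epithelial and mesenchymal sums of each irradiated group lay above the controls, and so did the immune sums in 12Gy_48h. The 4 endothelial markers summed to at most 1.11 CPM in any library. The part of these marker changes in the results below was not tested. One library stood apart on the K11969 loci: over the tested loci, 4Gy_48h replicate 3 had a mean correlation of 0.931 with the controls and 0.927 with its own group, while 4Gy_48h replicates 1 and 2 had 0.895 and 0.892 with the controls and 0.935 and 0.933 with their own group. Over all tested features 4Gy_48h replicate 3 was also nearer the controls (0.956) than replicates 1 and 2 (0.938 and 0.930). There it was nearer still to its own group (0.970). Counts and shares over the K11969 loci in 4Gy_48h are therefore also given without replicate 3.

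Reads on the K11969 loci took a smaller share of each irradiated library than of each control. They held 9.68, 11.4 and 10.9% of the assigned reads in control replicates 1 to 3, a mean of 10.6 ± 0.882% (SD, n = 3). In 12Gy_24h the share was 3.27, 3.15 and 3.19%, or 3.20 ± 0.0622%, which is 0.301 times the control mean. In 12Gy_48h it was 6.25, 6.14 and 5.25%, or 5.88 ± 0.548%. In 4Gy_48h it was 5.98, 5.85 and 7.29%, or 6.38 ± 0.797%, and 5.92% on average without replicate 3. The lowest control lay above the highest irradiated library, and the 3 libraries in 12Gy_24h lay below all others, while the groups at 48 h overlapped. Cells in culture are measured here in bulk, and the values are shares of the reads, not amounts. Known genes held 76.3% of the reads in the controls and 86.2% in 12Gy_24h. Fewer cells carrying such RNA, less of it per cell and more of other RNA therefore cannot be told apart.

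**Figure D1:**
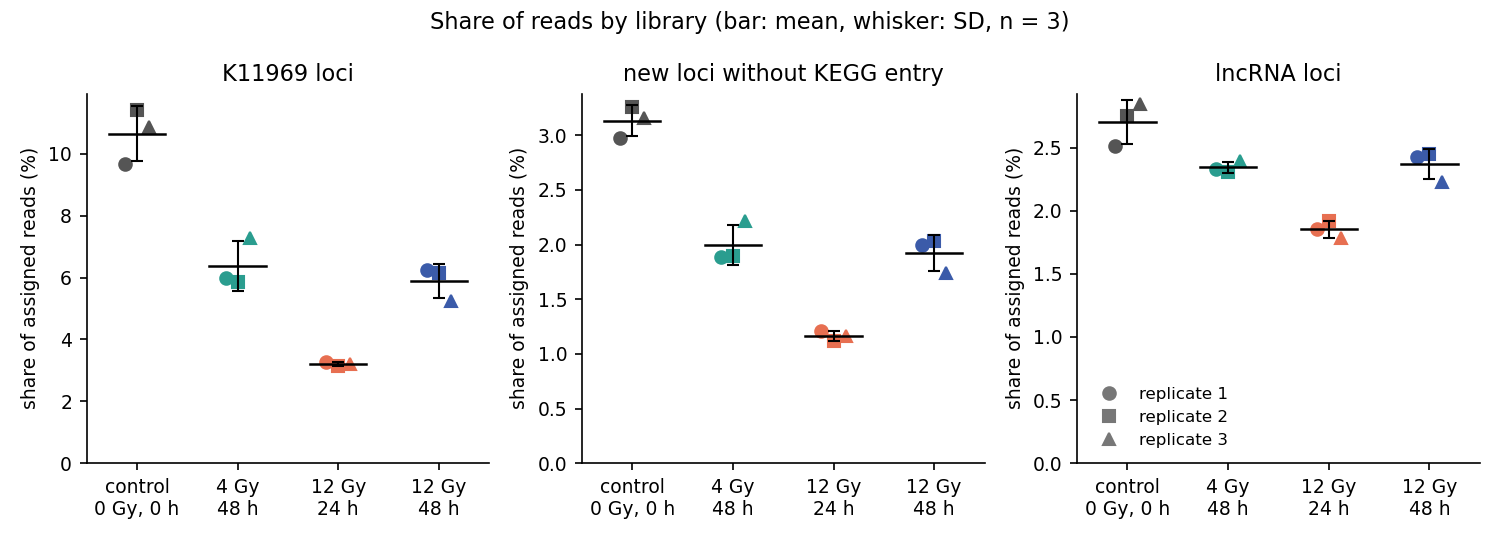
Share of assigned reads (%) in each library for K11969 loci, new loci without a KEGG entry and lncRNA loci; points are libraries, bars the mean and whiskers the SD of 3. The K11969 loci fell from 10.6% in the controls to 3.20% in 12Gy_24h and stood at 5.88% in 12Gy_48h and 6.38% in 4Gy_48h.

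The share moved in other transcripts as well. All other new loci together went from 10.4 ± 0.280% in the controls to 8.73 ± 0.0699% in 12Gy_24h, 0.842 times the control mean. New loci without any KEGG entry went from 3.13 ± 0.142% in the controls to 1.16 ± 0.0477% in 12Gy_24h, 0.372 times the control mean. The 290 new loci with the entry K10591, that of the ubiquitin ligase NEDD4, went from 0.240 ± 0.0318% to 0.0509 ± 0.00173%, 0.212 times. All lncRNA loci, among them 39 with reads that carry K11969, went from 2.70 ± 0.173% to 1.85 ± 0.0681%, 0.685 times. K11969 loci made up 50.6 ± 1.92% of the reads on all new loci in the controls, 26.8 ± 0.497% in 12Gy_24h, 40.3 ± 2.55% in 4Gy_48h and 39.8 ± 2.13% in 12Gy_48h. Without replicate 3 the value in 4Gy_48h was 38.8%. Ribosomal protein genes, a set of known abundant transcripts, held 23.1% of the reads in the controls and 24.0% in 12Gy_24h. Mitochondrially encoded genes held 0.406% and 0.517%.

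The fall in share did not rest on a few abundant loci. Reads were spread unevenly, from 1 to 101793 per locus over the 12 libraries with a median of 79; 2913 loci had 100 reads or more and 43 had 10000 or more. The 8 loci with most reads held 13.8% of the reads on K11969 loci, the top 100 held 45.1% and the top 1000 held 81.8%. The 3821 loci under 100 reads went from 0.610 ± 0.0390% of the reads in the controls to 0.154 ± 0.00990% in 12Gy_24h, 0.252 times. The 43 loci of 10000 reads and over went from 3.32 ± 0.211% to 1.15 ± 0.0198%, 0.346 times. The classes between these had ratios of 0.263 and 0.295 in 12Gy_24h. In 12Gy_48h the 4 classes lay between 0.547 and 0.575 times control, and in 4Gy_48h between 0.588 and 0.616 times, or 0.545 and 0.569 without replicate 3.

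Fewer K11969 loci were detected in each irradiated group than in the controls. A read was present at 6530 to 6614 of the 6734 loci in the controls, 6300 to 6377 in 4Gy_48h, 6143 to 6274 in 12Gy_48h and 5322 to 5494 in 12Gy_24h. The groups did not overlap in this number, and 4Gy_48h replicates 1 and 2 had 6300 and 6303. Other new loci with a read numbered 3318 to 3362 in the controls, 3234 to 3247 in 4Gy_48h, 3234 to 3279 in 12Gy_48h and 2825 to 2888 in 12Gy_24h. Known genes with a read numbered 11899 to 12157, 11924 to 12103, 12301 to 12542 and 11891 to 12048 in that order of groups. Only 3911 loci had reads in all 12 libraries. Over all 6734 loci, with no filter on depth, the mean CPM was lower than in the controls at 6567 loci in 12Gy_24h (97.5%, against 58.6% of all features with reads), 5791 in 12Gy_48h (86.0%, against 46.5%) and 5781 in 4Gy_48h (85.8%, against 52.8%). Without replicate 3 the last was 5858 (87.0%, against 52.7%). In 12Gy_24h all 3 values lay below all 3 controls at 5327 of 6734 loci (79.1%), against 32.8% of all features with reads. In 12Gy_48h this held for 3010 loci (44.7%, against 18.3%) and in 4Gy_48h for 2792 loci (41.5%, against 17.0%). The opposite order, all 3 values above all 3 controls, was found at 27, 118 and 84 loci, or 0.401, 1.75 and 1.25%, against 11.5, 17.6 and 8.38% of all features with reads. Without 4Gy_48h replicate 3, both remaining values lay below all 3 controls at 3734 loci (55.5%, against 23.7% of all features with reads) and above them at 171 (2.54%, against 13.0%). An order of 2 values against 3 is met more easily than one of 3 against 3.

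Single loci were tested with edgeR's quasi-likelihood test, with Benjamini-Hochberg adjustment over the 15086 features that passed the filter on low counts and a threshold of 0.05. The filter passed 3344 K11969 loci, 49.7% of them, which held 95.5% of their reads. The other 3390 loci were too thinly covered; together they held 0.476% of the reads in the controls and 0.125% in 12Gy_24h. Fold changes are log2 values after TMM scaling over all features. That scaling left the known genes with medians above 0, at 0.23 in 12Gy_24h, 0.20 in 12Gy_48h and 0.14 in 4Gy_48h, and with factors taken from known genes alone all fold changes shift down by about these amounts.

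The 12Gy_24h libraries were set against the controls first. Of the 3344 tested loci, 2946 fell and 15 rose, against 29.4% of all tested features called lower and 18.5% called higher. The median log2 fold change over the tested loci was -1.93, against 0.01 over all tested features and 0.23 over the 9809 tested known genes. With no filter, 4245 of the 6734 loci fell and 25 rose, against 23.7 and 16.5% of all features with reads. With factors from known genes, 3088 fell and 13 rose, beside 35.0% of all features lower and 8.48% higher. Among other new loci, those without a KEGG entry had a median of -1.90, with 832 of 1157 lower and 62 higher. New loci with a KEGG entry other than K11969 and K10591 had a median of 0.03, with 57 of 271 lower and 58 higher. The 28 tested lncRNA loci that carry K11969 had a median of -1.25, with 19 lower and 0 higher (edgeR; also 0 at an unadjusted p under 0.05 and 0 by DESeq2).

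The fall in 12Gy_24h was of like size across the kinds of match. Loci matching mCG1045525 had a median of -2.04 (796 of 878 lower), those matching rCG56442 -1.94 (752 of 858), those matching mCG145372 -1.90 (247 of 289) and those matching the Chpt1 protein sequence -1.64 (463 of 549). The 663 tested loci with E values under 1e-12 had a median of -1.91, and the 896 with E values of 1e-08 and over had -1.89. Loci with and without a Swiss-Prot match to NEDD4 had medians of -1.97 and -1.91. Differences between these classes were not tested, since they share libraries and may share sequence.

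At 48 h after 12 Gy the loci were lower than in the controls, by less. Of the 3344 tested loci, 1936 fell and 28 rose, against 20.2% of all tested features lower and 12.9% higher, with a median of -0.96. With factors from known genes, 2278 fell and 18 rose, against 27.5 and 6.25% of all features. With no filter, 2219 of 6734 fell and 47 rose, against 12.6 and 9.72%. New loci without a KEGG entry had a median of -0.86, with 557 of 1157 lower and 53 higher.

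At 48 h after 4 Gy, 1345 of the 3344 tested loci fell and 26 rose, against 13.0% of all tested features lower and 4.53% higher, with a median of -0.74. Without 4Gy_48h replicate 3, 1471 of 3694 tested loci fell and 28 rose (13.7 and 4.78% of all features), with a median of -0.87; more loci pass the filter when a group has 2 libraries. Leaving out others moved the counts more. Of the loci then tested, 830 of 3729 fell without 4Gy_48h replicate 2, 873 of 3732 without 4Gy_48h replicate 1 and 890 of 3536 without control replicate 3. In the same order, 16, 14 and 15 were higher. The share of all features called in these fits is not given here, so the smaller counts are not read as particular to these loci. With factors from known genes 1698 fell and 17 rose, against 17.5 and 1.86% of all features. Replicate 3 had the highest CPM of its group at 1959 of the 3344 loci (58.6%), replicate 1 at 724 and replicate 2 at 661. The like count over all features is not given here, and replicate 3 was nearer the controls over all tested features too.

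The authors' deposited table, made with DESeq2 at an adjusted p under 0.01 and a fold of 1.5, called 2388 K11969 loci lower and 15 higher in 12Gy_24h, beside 18.6 and 7.04% of all features with a value there. For 12Gy_48h the authors' deposited table called 995 lower and 21 higher (7.50 and 3.96% of all), and for 4Gy_48h 494 and 3 (3.76 and 0.840%).

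**Figure D2:**
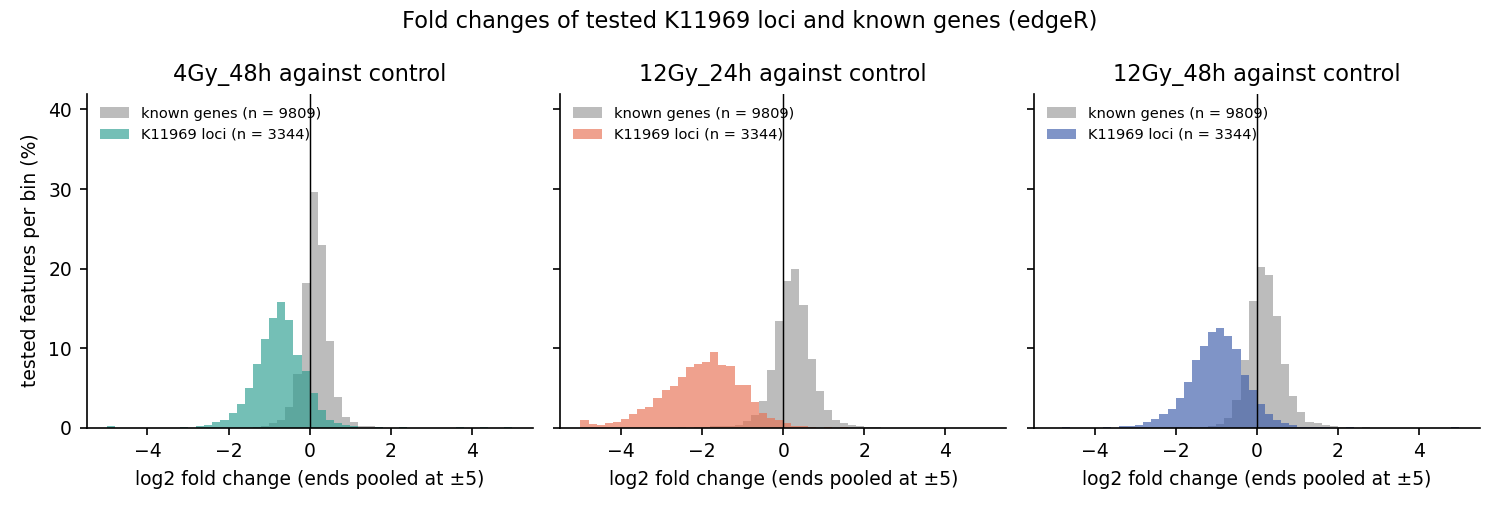
Distribution of log2 fold changes against control (edgeR) over 3344 tested K11969 loci (coloured) and 9809 tested known genes (grey), as percent of each set per bin. The K11969 loci centre on -0.74 in 4Gy_48h, -1.93 in 12Gy_24h and -0.96 in 12Gy_48h, left of the known genes in each panel.

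Cells taken 48 h and 24 h after 12 Gy were compared directly. At 48 h, 1495 of the 3344 tested loci were higher and 27 lower, against 20.6% of all tested features higher and 11.4% lower, and the median was 0.95. Over all 6734 loci, all 3 values at 48 h lay above all 3 at 24 h at 3508 loci (52.1%, against 32.2% of all features with reads), and below them at 51 loci (0.757%, against 6.99%). Without 12Gy_48h replicate 2 the number lower was 15 of 3706 tested, and the share of all features in that fit is not given here. New loci without a KEGG entry had a median of 0.88, and known genes -0.06.

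Fewer loci passed between 12 Gy and 4 Gy at 48 h. Of the 3344 tested loci, 158 were lower and 18 higher after 12 Gy, against 2.49% of all tested features lower and 2.19% higher, with a median of -0.22. The count depended on single libraries. Without 4Gy_48h replicate 3, 29 of 3694 tested loci were lower (0.785%, against 0.563% of all features, median -0.10). The share higher was then 0.271%, against 0.702% of all features. The share lower was thus near that of all features in this fit. Lower loci numbered 19 without 12Gy_48h replicate 2, 53 without 12Gy_48h replicate 3 and 62 without 12Gy_48h replicate 1. For fits without the other libraries the share of all features called is not given here. The number higher went to 9, 5 and 10 without 4Gy_48h replicates 1, 2 and 3, and to 3, 0 and 11 without 12Gy_48h replicates 1, 2 and 3. Behind that count of 0 (edgeR) stood 69 loci at an unadjusted p under 0.05.

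The largest single differences between the doses at 48 h were in loci of few reads, and none of them held without every library. ONT.10138 had 14, 14 and 20 reads after 12 Gy and 3, 8 and 1 after 4 Gy (1.98, adjusted p 0.0366, edgeR), a call lost without 4Gy_48h replicate 1 (1.82) or 3 (1.56) or 12Gy_48h replicate 1 (2.06), 2 (2.08) or 3 (1.78). ONT.1316 had 10, 16 and 9 reads against 3, 5 and 2 (1.77), lost without any 1 of the 6 libraries (1.501 to 2.14). ONT.13512 had 2, 2 and 1 reads against 5, 11 and 18 (-2.68), lost without 4Gy_48h replicate 3 (-2.14) or 12Gy_48h replicate 1 (-2.82), 2 (-2.80) or 3 (-2.43). ONT.20444 had 1, 2 and 1 reads against 6, 11 and 10 (-2.64), lost without any 1 of the 6 libraries (-3.00 to -2.49). DESeq2 gave no adjusted p for these 4 loci.

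The 8 loci with most reads were named by that rule alone. ONT.10796, which matches mCG1045525, was the most abundant. It had 3377, 2305 and 3107 CPM in the controls, 1722, 1894 and 2374 in 4Gy_48h, 1623, 1481 and 1735 in 12Gy_24h and 2477, 2133 and 1705 in 12Gy_48h. The controls overlapped 4Gy_48h and 12Gy_48h but not 12Gy_24h. Its log2 fold change was -0.78 ± 0.16 (SE, adjusted p 0.000735, edgeR) in 12Gy_24h. In 12Gy_48h it was -0.57 (adjusted p 0.0123), and that call was lost without control replicate 1 (-0.42), control replicate 3 (-0.48) or 12Gy_48h replicate 3 (-0.42). In 4Gy_48h it was -0.56 (adjusted p 0.024), and was lost without control replicate 1 (-0.41), control replicate 3 (-0.47), 4Gy_48h replicate 1 (-0.46) or 4Gy_48h replicate 2 (-0.50).

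ONT.17429, which matches rCG56442, showed groups in a clear order. It had 2209, 2717 and 2615 CPM in the controls, 1176, 1303 and 1583 in 4Gy_48h, 1073, 964 and 794 in 12Gy_48h and 621, 574 and 577 in 12Gy_24h. No group overlapped another. The log2 fold changes against control were -0.89 ± 0.12, -1.496 ± 0.12 and -2.00 ± 0.12 in that order of groups, with adjusted p of 0.00016, 1.01e-06 and 7.15e-09 (edgeR).

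ONT.9490, which matches mCG145372, had the largest fall of the 8 in 12Gy_24h. It had 2110, 2155 and 1895 CPM in the controls, 1562, 1156 and 1642 in 4Gy_48h, 326, 301 and 305 in 12Gy_24h and 1151, 1141 and 878 in 12Gy_48h. The 3 libraries in 12Gy_24h lay far below all others. The log2 fold change was -2.63 ± 0.14 in 12Gy_24h (adjusted p 2.57e-09, edgeR) and -1.04 ± 0.13 in 12Gy_48h (adjusted p 2.28e-05). In 4Gy_48h it was -0.49 (adjusted p 0.0135), lost without 4Gy_48h replicate 2 (-0.34).

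ONT.15901, which matches rCG39016, did not share this order. It had 1489, 1710 and 1818 CPM in the controls, 586, 621 and 793 in 4Gy_48h, 784, 705 and 709 in 12Gy_24h and 706, 799 and 622 in 12Gy_48h. All irradiated libraries lay below the controls, and the 3 irradiated groups overlapped. The log2 fold changes were -1.32 in 4Gy_48h, -1.10 in 12Gy_24h and -1.32 in 12Gy_48h, with adjusted p of 1.41e-05, 1.41e-06 and 1.94e-06 (edgeR). The difference between 48 h and 24 h was -0.22 (adjusted p 0.17); it passed with no filter (-0.30) and with the 2 groups fitted alone (-0.25).

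The other 4 abundant loci were ONT.20488, ONT.14589, ONT.2938 and ONT.6073. All fell in 12Gy_24h, with log2 fold changes of -1.70, -1.14, -0.95 and -2.40 in that order, and in 12Gy_48h, with -1.22, -0.59, -0.68 and -1.44. In 4Gy_48h ONT.14589 (-0.87) and ONT.6073 (-0.78) fell. ONT.2938 had 0.25 less on the log2 scale there, which did not pass (adjusted p 0.132, edgeR), and passed with factors from known genes. ONT.20488 fell by 0.36 (adjusted p 0.0444), a call lost with no filter (-0.28), with the 2 groups fitted alone (-0.33), and without control replicate 1 (-0.21), control replicate 3 (-0.34), 4Gy_48h replicate 1 (-0.28) or 4Gy_48h replicate 2 (-0.32). The level of ONT.6073 ran from 1058 to 1260 CPM in the controls and from 200 to 225 in 12Gy_24h.

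**Figure D3:**
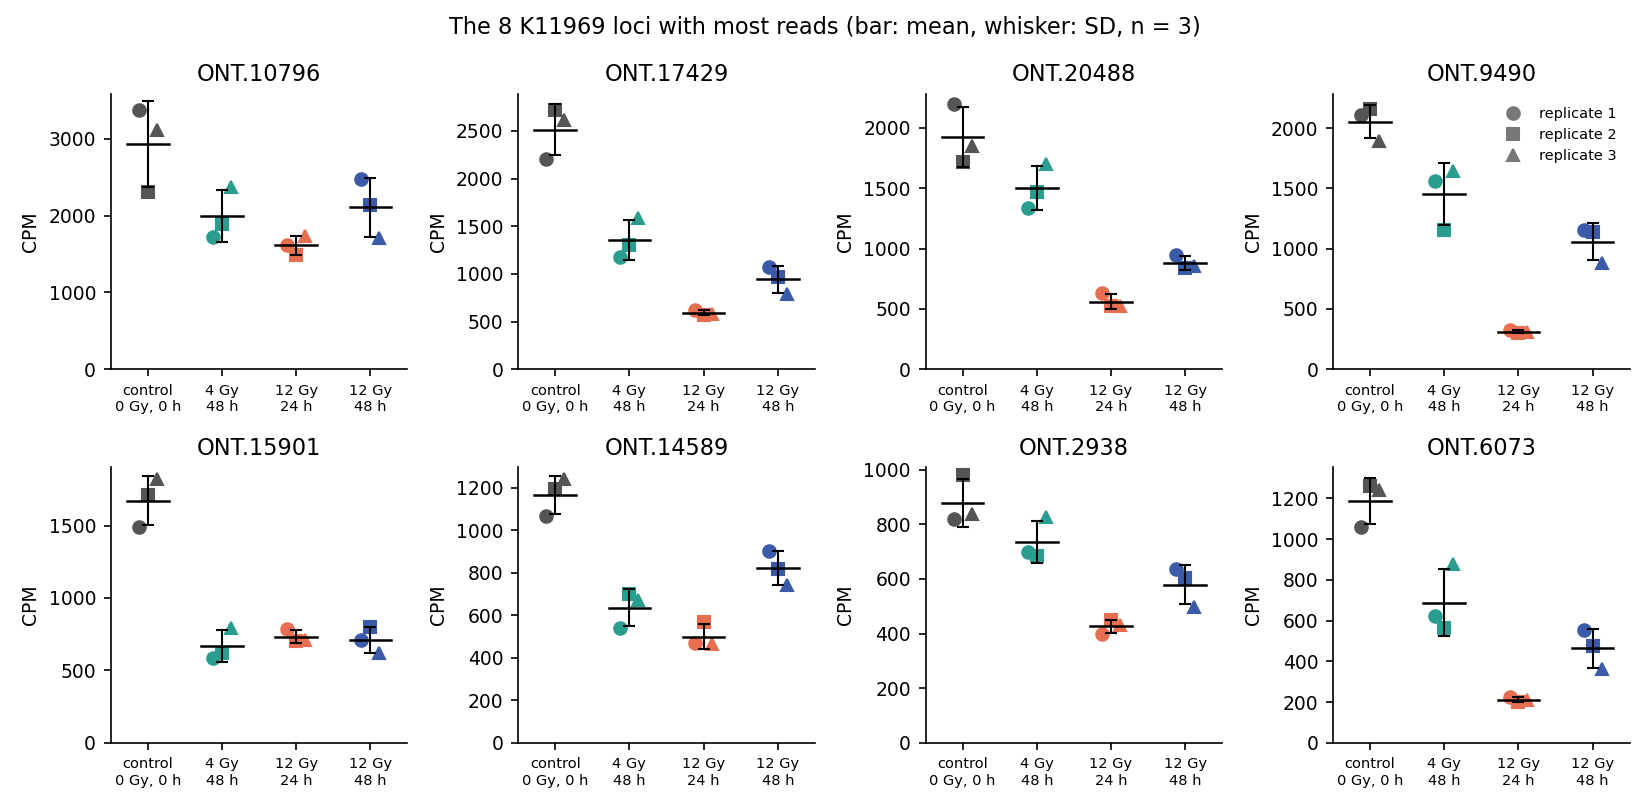
Level in CPM of the 8 K11969 loci with most reads; points are libraries, bars the mean and whiskers the SD of 3. ONT.9490 was at 301 to 326 CPM in 12Gy_24h against 1895 to 2155 in the controls, while ONT.15901 was at a like level in the 3 irradiated groups.

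Some loci of lower depth were at 0 reads in whole groups. ONT.2949, which matches mCG1045525, had 86, 107 and 223 reads in the controls and 0 in all 3 libraries in 4Gy_48h, at least 131-fold lower against a floor of 3 reads over the group. It had 0, 17 and 7 reads in 12Gy_24h and 0, 0 and 15 in 12Gy_48h, so libraries of 1 group differed. Its fall in 12Gy_48h passed in edgeR (adjusted p 0.000398) and was lost with DESeq2 (adjusted p 0.127). ONT.15895 had 24, 42 and 49 reads in the controls, 0 in all libraries in 4Gy_48h and 12Gy_24h, and 0, 4 and 0 in 12Gy_48h. That is at least 36.2-fold and 35.8-fold lower, and its calls in 4Gy_48h and 12Gy_48h were lost with DESeq2.

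ONT.12566 had 35, 45 and 51 reads in the controls and 0 in 12Gy_24h, at least 40.8-fold lower, and 30, 0 and 0 reads in 12Gy_48h. ONT.2927 had 39, 42 and 40 reads in the controls and 0 in 12Gy_24h, at least 37.7-fold lower. It had 17, 0 and 8 reads in 4Gy_48h and 6, 3 and 0 in 12Gy_48h. ONT.13147 had 22, 35 and 46 reads in the controls and 0 in 4Gy_48h and 12Gy_24h. That is at least 32.4-fold and 32.1-fold lower, and both calls were lost with DESeq2. In 12Gy_48h it had 0, 25 and 0 reads, so libraries of 1 group differed. All these loci had reads in each control, which the rule that named them requires, so it adds no support to the falls. ONT.6243 had 17, 14 and 15 reads in the controls, 0 in 12Gy_48h (at least 13.6-fold lower), and 0, 2 and 0 in 4Gy_48h, a ratio of 21.7 with a 95% counting interval of 5.68 to 185. ONT.9539 had 56, 10 and 26 reads in the controls and 3, 0 and 0 in 12Gy_48h, a ratio of 27.2 (9.01 to 134), and its call was lost with DESeq2.

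A few loci rose. ONT.12600, which matches rCG56442, had 4.14, 15.1 and 8.20 CPM in the controls and 40.01, 62.8 and 24.8 in 4Gy_48h, a log2 fold change of 2.26 ± 0.50 (adjusted p 0.00493, edgeR). ONT.667 had 8, 8 and 5 reads in the controls and 22, 20 and 19 in 4Gy_48h, a log2 fold change of 1.60 ± 0.40 (adjusted p 0.0103). That the groups did not overlap for either locus follows from the rule that named these loci. ONT.14941 passed by little (1.19, adjusted p 0.0482) and lost the call with no filter (1.27), RLE scaling (1.17), factors from known genes (1.05), DESeq2 (1.196) and the 2 groups fitted alone (1.22). It also lost it without control replicate 2 (1.08), control replicate 3 (1.10), 4Gy_48h replicate 1 (1.10), 4Gy_48h replicate 2 (1.197) or 4Gy_48h replicate 3 (1.31).

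Between 24 h and 48 h after 12 Gy, ONT.13351 went from 0 reads in all 3 libraries to 18, 18 and 15, at least 17.9-fold higher, and ONT.2494 from 0 to 16, 10 and 16, at least 14.8-fold higher. ONT.20391, which matches alsin isoform 2, went the other way, from 33.6, 38.1 and 47.3 CPM to 15.99, 11.5 and 15.2 (log2 fold change -1.65 ± 0.18, adjusted p 8.02e-06, edgeR). Its controls were at 54.8 to 58.5 CPM. ONT.8364 was also lower (-1.91, adjusted p 0.0446), a call lost with factors from known genes (-1.86), without 12Gy_24h replicate 2 (-1.83) or 3 (-1.91), or without 12Gy_48h replicate 1 (-2.31), 2 (-1.93) or 3 (-1.62).

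A small set of loci was low in the controls and in 1 irradiated library. These were picked by their values, with the highest CPM of the 3 controls and 4Gy_48h replicate 3 below 0.5 times the lowest of the other 8 libraries and that lowest at 1 CPM or more, so they are described without a test. There were 10 such loci among the 6734 (0.149%). The same pattern was met by 1 of 15258 known genes (Sirt5, 0.0066%), and by 0 of 3719 other new loci and 0 of 588 lncRNA loci. The share over all features is not given here. The largest was ONT.4942, which matches rCG56442. It had 31, 20 and 18 reads in the controls, 660, 667 and 16 in 4Gy_48h, 501, 505 and 443 in 12Gy_24h and 771, 832 and 631 in 12Gy_48h. The lowest of the 8 high libraries was 18.3 times the highest of the 4 low ones in CPM. In 4Gy_48h replicate 3 the locus stood at the level of the controls, while replicates 1 and 2 of that group stood with the 12 Gy libraries.

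ONT.20365 had 11, 12 and 22 reads in the controls, 246, 280 and 11 in 4Gy_48h, 101, 136 and 124 in 12Gy_24h and 268, 309 and 289 in 12Gy_48h, a gap of 4.39 times. ONT.10347 had 70, 55 and 46 reads in the controls, 182, 260 and 36 in 4Gy_48h, 144, 149 and 140 in 12Gy_24h and 124, 117 and 117 in 12Gy_48h, a gap of 2.16 times. In the first the levels in 12Gy_24h were the lowest of the high libraries, and in the second they were not. ONT.17145 had 8, 4 and 6 reads in the controls, 197, 150 and 3 in 4Gy_48h, 52, 42 and 60 in 12Gy_24h and 182, 166 and 108 in 12Gy_48h. ONT.15603 had 13, 13 and 15 reads in the controls, 127, 104 and 12 in 4Gy_48h, 60, 41 and 41 in 12Gy_24h and 74, 61 and 60 in 12Gy_48h. ONT.3945 had 15, 10 and 5 in the controls, 73, 133 and 7 in 4Gy_48h, 57, 58 and 66 in 12Gy_24h and 51, 67 and 51 in 12Gy_48h. In the last 2 of these, both high libraries of 4Gy_48h lay above all 12 Gy libraries in CPM.

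The remaining loci of the set were thinner. ONT.17850 had 0, 4 and 2 reads in the controls, 75, 61 and 2 in 4Gy_48h, 45, 27 and 31 in 12Gy_24h and 62, 67 and 42 in 12Gy_48h. ONT.16235 had 0, 2 and 2, then 58, 56 and 3, then 35, 22 and 37, and 56, 68 and 40 reads in the same order of groups. ONT.6066 had 3, 2 and 1, then 39, 39 and 2, then 15, 15 and 11, and 32, 39 and 29 reads. ONT.4174 had 0 reads in the controls and in 4Gy_48h replicate 3, 13 and 12 in replicates 1 and 2 of that group, 9, 6 and 8 in 12Gy_24h and 13, 13 and 11 in 12Gy_48h. Against a floor of 3 reads over the control group it was at least 8.21-fold higher in 12Gy_24h and 13.9-fold higher in 12Gy_48h. The locus was chosen by these same values, so the bounds only describe it.

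Sirt5, which encodes a mitochondrial protein deacylase, had 57, 62 and 65 reads in the controls, 188, 265 and 44 in 4Gy_48h, 260, 268 and 216 in 12Gy_24h and 244, 252 and 210 in 12Gy_48h. Just outside the threshold lay ONT.16658, ONT.16469 and ONT.832, for which the 8 libraries were higher by a smaller gap. ONT.16658 had 15, 9 and 7 reads in the controls, 83, 65 and 4 in 4Gy_48h, 32, 30 and 21 in 12Gy_24h and 77, 78 and 45 in 12Gy_48h. With any gap at all, all 8 libraries lay above the 4 at 13 K11969 loci (0.193%), 17 other new loci (0.457%), 5 lncRNA loci (0.850%) and 410 known genes (2.69%). On that looser count the share was lowest in the K11969 loci. The opposite pattern was high in the 4 libraries and low in the 8 by the same margin. It was met by 19 of 6734 K11969 loci, 9 of 3719 other new loci, 2 of 15258 known genes and 0 of 588 lncRNA loci. A level of 1 CPM in all 8 or all 4 libraries, which either pattern needs, was reached by 4129, 1833, 9946 and 416 of these. The share over all features is not given here.

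**Figure D4:**
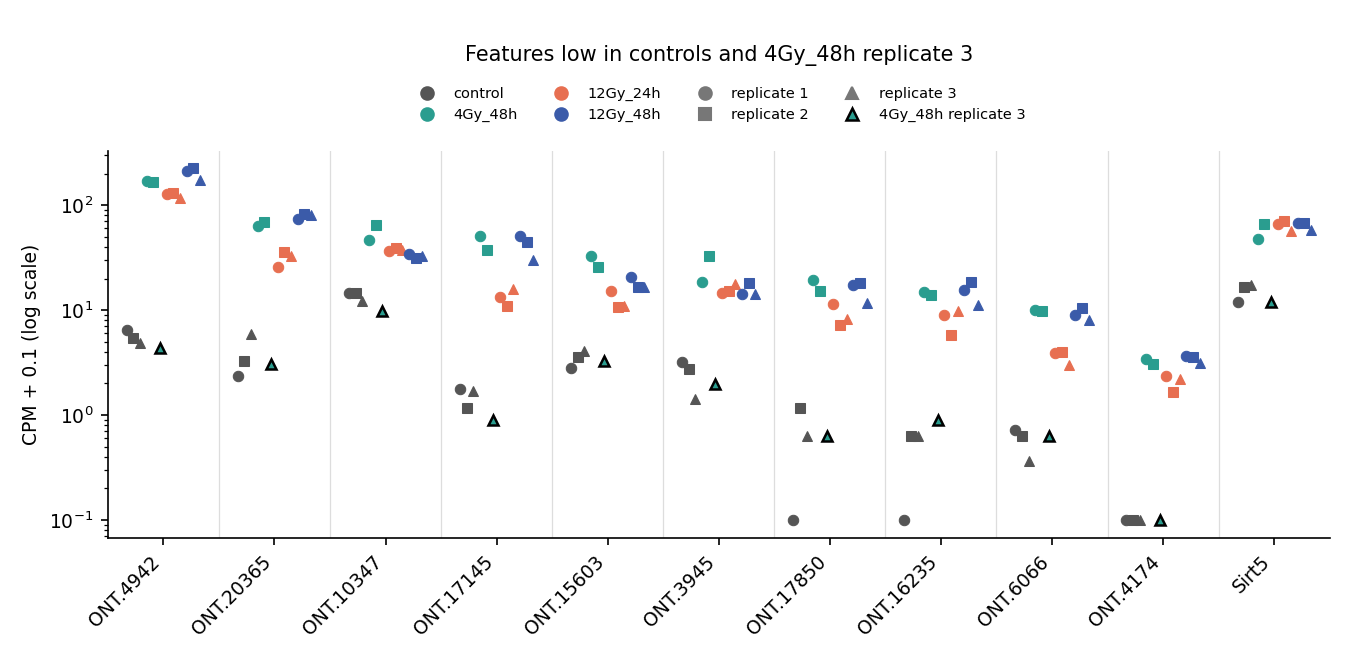
CPM + 0.1 on a log axis for the 10 K11969 loci chosen for being low in the controls and in 4Gy_48h replicate 3 (outlined triangle), and for Sirt5; each point is 1 library, coloured by group. The outlined triangle lies near the grey control points in each feature, and the other irradiated libraries lie above.

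By the measure of likeness used here, the Pearson correlation of log2(CPM + 1) over the 12 libraries, 3 of 14263 features were most like ONT.10796: the K11969 locus ONT.18022 (r = 0.936), the known gene Grcc10 (0.934) and the K11969 locus ONT.15081 (0.930). The libraries share their groups, so these values are a description.

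Arih2, the gene whose entry these loci carry, passed in none of the 5 comparisons. It had 24.0, 17.5 and 23.0 CPM in the controls, 24.5, 24.1 and 24.0 in 4Gy_48h, 28.1, 26.4 and 12.2 in 12Gy_24h and 32.2, 34.4 and 27.7 in 12Gy_48h. The controls overlapped 12Gy_24h, and 12Gy_24h replicate 3 was the lowest library. The log2 fold changes were 0.12 ± 0.23 in 12Gy_24h (adjusted p 0.694, edgeR), 0.45 ± 0.22 in 12Gy_48h (adjusted p 0.128) and 0.16 ± 0.23 in 4Gy_48h (adjusted p 0.674). Without 12Gy_24h replicate 3 the first was 0.52 and passed (adjusted p 0.0193). The sign in 12Gy_24h turned without 12Gy_24h replicate 1 (-0.05, adjusted p 0.896, edgeR) and with factors from known genes (-0.11).

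RING-between-RING ligases and the neddylation and cullin genes that work with them were listed as the known genes of the same pathway. Of 32 listed, 28 were tested. In 12Gy_24h 10 rose (35.7%, against 26.5% of tested known genes and 18.5% of all features) and 0 fell (edgeR; 1 lower at an unadjusted p under 0.05, and 0 by DESeq2). Called lower there were 3.99% of known genes and 29.4% of all features. The median log2 fold change was 0.23, the same as that of all known genes. With factors from known genes 3 rose and 3 fell, beside 11.7 and 10.2% of known genes and 8.48 and 35.0% of all features. In 12Gy_48h 5 rose (17.9%, against 18.2% of known genes and 12.9% of all features), with a median of 0.12. There 1 fell (3.57%, against 3.74% of known genes and 20.2% of all features). With factors from known genes 2 rose and 5 fell, beside 8.56 and 9.93% of known genes and 6.25 and 27.5% of all features. In 4Gy_48h 1 rose (3.57%, against 6.21% of known genes and 4.53% of all features), with a median of 0.15. There 0 fell (edgeR, also 0 at an unadjusted p under 0.05 and by DESeq2), against 0.877% of known genes and 13.0% of all features. With factors from known genes 1 rose and 1 fell, beside 2.43 and 2.49% of known genes and 1.86 and 17.5% of all features. Without 4Gy_48h replicate 3, TMM scaling over all features also gave 1 higher and 0 lower (median 0.14). The shares higher at 48 h under that scaling were thus at or below those of all known genes. Of the 6 most abundant, Elob and Eloc (the elongin adaptors of cullin 5 and cullin 2 ligases), Ube2l3 (a ubiquitin-conjugating enzyme of these ligases) and Rnf7 (the RING subunit of cullin 5 ligases) passed in no comparison with control with TMM scaling over all features. With factors from known genes, Eloc had -0.34 in 12Gy_48h (adjusted p 0.00723, edgeR) and -0.31 in 4Gy_48h (adjusted p 0.0228), and passed in both. Ube2l3 passed in 12Gy_48h (-0.35, adjusted p 0.031) and Elob in 12Gy_24h (-0.27, adjusted p 0.0403) under that scaling. Rbx1, the RING subunit of most cullin ligases, rose by 0.28 in 12Gy_24h (adjusted p 0.0306, edgeR), and lost the call with the 2 groups fitted alone (0.30) and with factors from known genes (0.04). Nedd8, the modifier itself, had a log2 fold change of -0.53 at 48 h against 24 h after 12 Gy (adjusted p 0.000787, edgeR). Against control in 12Gy_48h its value was -0.30 (adjusted p 0.0288), a call lost with no filter (-0.22), with the 2 groups alone (-0.31), and without control replicate 1 (-0.23) or 3 (-0.23) or 12Gy_48h replicate 1 (-0.25) or 2 (-0.23).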

How the data were processed

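The deposited table gives read counts per feature and library as whole numbers without normalization, and CPM, which the authors computed from the counts. Further deposited columns hold log2 fold changes, adjusted p and calls (other values) from comparisons the authors made. Per the submitters' processing notes, cutadapt 1.9 and FastQC were used. No aligner, assembler, genome build, platform, strandedness or rule for reads that map to several places is given in the sources used here, so the split of reads between similar loci is uncertain. Positions and sequences of the loci were not used here.

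Groups follow the labels, as do replicate numbers. All features entered 1 quasi-likelihood fit of their counts (R 4.3.3, edgeR 4.0.16, TMM, filterByExpr, 1 mean per group over 12 libraries, two-sided, adjusted p threshold 0.05). There were 5 comparisons. The script was tested on simulated data. Errors of fold changes are SE from the F statistic. Floors of 3 counts over a group and 95% intervals cover counting error only. No 2 libraries of a group agreed within counting noise (chi-square per degree of freedom 1.72 to 7.46). GENCODE M21 transcripts were searched on both strands.

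Loci named were the 8 with most reads; the 4 strongest rises and 4 strongest falls of every comparison with control, and 2 each in the others, among loci past the threshold with groups that do not overlap and at least 1 CPM in the higher group; and up to 10 loci with the pattern given in the text. Members and lists were chosen with earlier results of these data known. Alternatives were RLE scaling, TMM factors from known genes only, no filter, a 5 CPM minimum for the group mean, DESeq2 1.42.0, a replicate block, the 2 groups compared alone, and each library left out.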

Additional observations from a re-analysis of the deposited data

Results flagged for a closer look

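Abundant K11969 loci differed between times and between doses in direct comparisons of irradiated groups (edgeR, adjusted p under 0.05). At 48 h against 24 h after 12 Gy, ONT.9490 was higher by 1.59 on the log2 scale, ONT.6073 by 0.96, ONT.14589 by 0.54, ONT.17429 by 0.50 and ONT.20488 by 0.48. The last was lost without 12Gy_24h replicate 2 (0.34).

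At 48 h, 12 Gy against 4 Gy gave log2 differences of -0.86 in ONT.20488, -0.66 in ONT.6073, -0.61 in ONT.17429, -0.55 in ONT.9490 and -0.44 in ONT.2938. ONT.20488 kept its call without each library. ONT.17429 lost it without 4Gy_48h replicate 3 (-0.48) or 12Gy_48h replicate 2 (-0.62), and ONT.6073 without these (-0.45 and -0.68) or 12Gy_48h replicate 3 (-0.51). ONT.9490 lost it without 4Gy_48h replicate 1 (-0.48) or 3 (-0.45), or 12Gy_48h replicate 2 (-0.60) or 3 (-0.43). ONT.2938 lost it without 4Gy_48h replicate 1 (-0.46) or 3 (-0.34), without 12Gy_48h replicate 1 (-0.51), 2 (-0.46) or 3 (-0.33), and with the replicate block (-0.44).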

How the results depend on the processing

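The fall of K11969 loci against control kept its direction, and its count of loci called lower stayed within 1.5 times, under each alternative run at 12Gy_24h and 12Gy_48h; at 4Gy_48h it did so except with some libraries left out. Loci called higher numbered 47 at 12Gy_48h, 25 at 12Gy_24h and 45 in 12 Gy against 4 Gy with no filter, 18 at 12Gy_48h and 17 at 4Gy_48h with factors from known genes, and 14 at 4Gy_48h with the 2 groups alone. With each library left out in turn, loci called higher ranged from 14 to 28 at 4Gy_48h, from 21 to 35 at 12Gy_48h, from 14 to 18 at 12Gy_24h, from 1090 to 1499 for 48 h against 24 h and from 0 to 11 for 12 Gy against 4 Gy. Loci called lower ranged from 830 to 1471, 1586 to 1867, 2818 to 3054, 15 to 26 and 19 to 121 in that order. The fits with a library left out tested 3477 to 3742 loci, against 3344 in the main fit. Apart from the fit without 4Gy_48h replicate 3, the share of all features called is not given for these ranges. It is also not given for the counts of 45 and 14 above or for the replicate block.

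As percent of known-gene reads the loci held 14.0, 7.80, 3.71 and 7.10% at control, 4Gy_48h, 12Gy_24h and 12Gy_48h, as percent of new-locus reads 50.6, 40.3, 26.8 and 39.8%, and without the 10 loci with most reads 9.04, 5.35, 2.64 and 5.01%. For 12 Gy against 4 Gy, ONT.15901 was at 0.00 and changed sign with no filter (-0.0012), 5 CPM (-0.0005), RLE (-0.0033), factors from known genes (-0.0414) and DESeq2 (-0.0032), and ONT.15901 and ONT.10796 ranged over 0 with a library left out (-0.0886 to 0.1468 and -0.14 to 0.13).

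Of the alternatives for 72 single-locus results, 825 gave the same call, 74 lost it, 5 gained it and 10 changed sign, 4 had no adjusted p from DESeq2, and 18 could not be tested. The replicate numbers did not pair the libraries: over 18 pairs the correlation of deviations ran from -0.128 to 0.137, with 1 over 0.1, and a library was best matched by its own number in 5 cases. With the replicate block, 2930, 1852 and 1235 loci were called lower at 12Gy_24h, 12Gy_48h and 4Gy_48h, and ONT.20444 and ONT.2938 lost their call in 12 Gy against 4 Gy. Depth limits loci of few reads, of which 3390 were not tested.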
